A study of Homo sapiens with 2 samples.

Results

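The nuclear genes of respiratory complex I were compared between cells stably carrying an ANGPTL4 plasmid and cells carrying the empty vector. They comprise the genes named NDUFA, NDUFB, NDUFC, NDUFS and NDUFV, which encode subunits, and NDUFAF, which encode assembly factors. They were taken by name, without hyphenated names and without pseudogene names, and rows with the same symbol were summed. This gave 46 genes on 48 rows, out of 55771 gene symbols in all. By name they were 15 NDUFA, 11 NDUFB, 2 NDUFC, 8 NDUFS, 3 NDUFV and 7 NDUFAF genes.

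The cells were BFTC 905, an established human cell line from a bladder cancer, in which ANGPTL4 is low per the labels. The ANGPTL4 library came from cells transfected with a plasmid overexpressing ANGPTL4, a secreted inhibitor of lipoprotein lipase, and the vector control library from cells transfected with pcDNA3.1. Both were selected as stable clones in G418 at 400 µg/ml, and how many clones each library represents is not given in the sources used here. There was 1 library of total RNA per group, so no difference below has a replicate check, no test between conditions was possible, and each statement compares these 2 libraries. In bulk RNA, fewer cells that express a gene and less RNA per cell cannot be told apart.

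The libraries held 3233596 reads with ANGPTL4 and 6572767 reads in the vector control, worked out from the steps of the RPKM values (reads per 1000 bases of exon and 1000000 reads). On 1 kb of exon, 1 read equalled 0.309 RPKM in the ANGPTL4 library and 0.152 RPKM in the control. The reads gave an exact 95% interval for each ratio between the libraries, which covers counting error only. ANGPTL4 itself stood at 91.2 RPKM in the ANGPTL4 library, against 3.92 RPKM in the control (read ratio 23.2, 17.99 to 30.5), in the direction the labels give. All 7 epithelial markers looked at were measured, with KRT5 at 468.9 RPKM with ANGPTL4 and 434.2 RPKM in the control. Of 6 urothelial markers 4 were measured, while UPK3A was listed at 0 and FOXA1 had 0.150 RPKM with ANGPTL4 and 0.148 RPKM in the control. Leukocyte, endothelial and fibroblast markers were low, with the leukocyte gene CD3E listed at 0, and a sum over the leukocyte list of 1.15 RPKM with ANGPTL4 and 0.986 RPKM in the control. The fibroblast gene COL1A1 had 4.06 RPKM with ANGPTL4 and 4.14 RPKM in the control.

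Complex I takes electrons from NADH and passes them to ubiquinone, while it pumps protons across the inner mitochondrial membrane. Its arm in the matrix consists of the N module, where NADH is oxidised, and the Q module, where quinone is reduced. Its arm in the membrane pumps protons and is built from modules named after the mitochondrially encoded subunits around which they form (ND1, ND2, ND4 and ND5). Core subunits carry out catalysis, accessory subunits surround them, and assembly factors help to build the enzyme without being part of it.

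Lower values with ANGPTL4 were about as frequent among the nuclear complex I genes as among all genes. Of the 46, 45 were measured, that is, reached at least 1 RPKM in at least 1 library. Of these, 31 (68.9%) had a lower and 14 a higher RPKM with ANGPTL4, while 64.4% of all 11801 measured genes were lower. With upper-quartile scaling 25 of the 45 were lower. Their median log2 ratio, taken as log2((RPKM + 1) with ANGPTL4 / (RPKM + 1) in the control), was -0.20, against -0.11 over all measured genes, and with upper-quartile scaling it was -0.11, against 0.026. At least 2-fold lower on this scale were 5 members (11.1%), against 1.92% of all measured genes, and 1 member (2.22%) was at least 2-fold higher, against 1.19%. The interval of the read ratio lay wholly below 1 for 20 members (44.4%), against 25.8% of all measured genes, and wholly above 1 for 2 members (4.44%), against 8.22%. Set against the median gene, which had an RPKM ratio of 0.911, 17 members (37.8%) lay wholly below it, against 15.5% of all genes, and 7 (15.6%) wholly above, against 15.7%. Such interval counts grow with the reads of a gene. Reads are minimum numbers where no exon length matched, in 33.1% of all rows above 0 and 10 of 48 member rows. The interval counts are therefore descriptions of these 2 libraries. The 5 lower members lay close to the size limit, between -1.16 and -1.02. With all values scaled to the median gene, only NDUFA9 of the 5 remained past it, which is 1 of 45 members against 1.30% of all measured genes, so that most of the contrast with all genes in this count depended on the scaling.

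**Figure D1:**
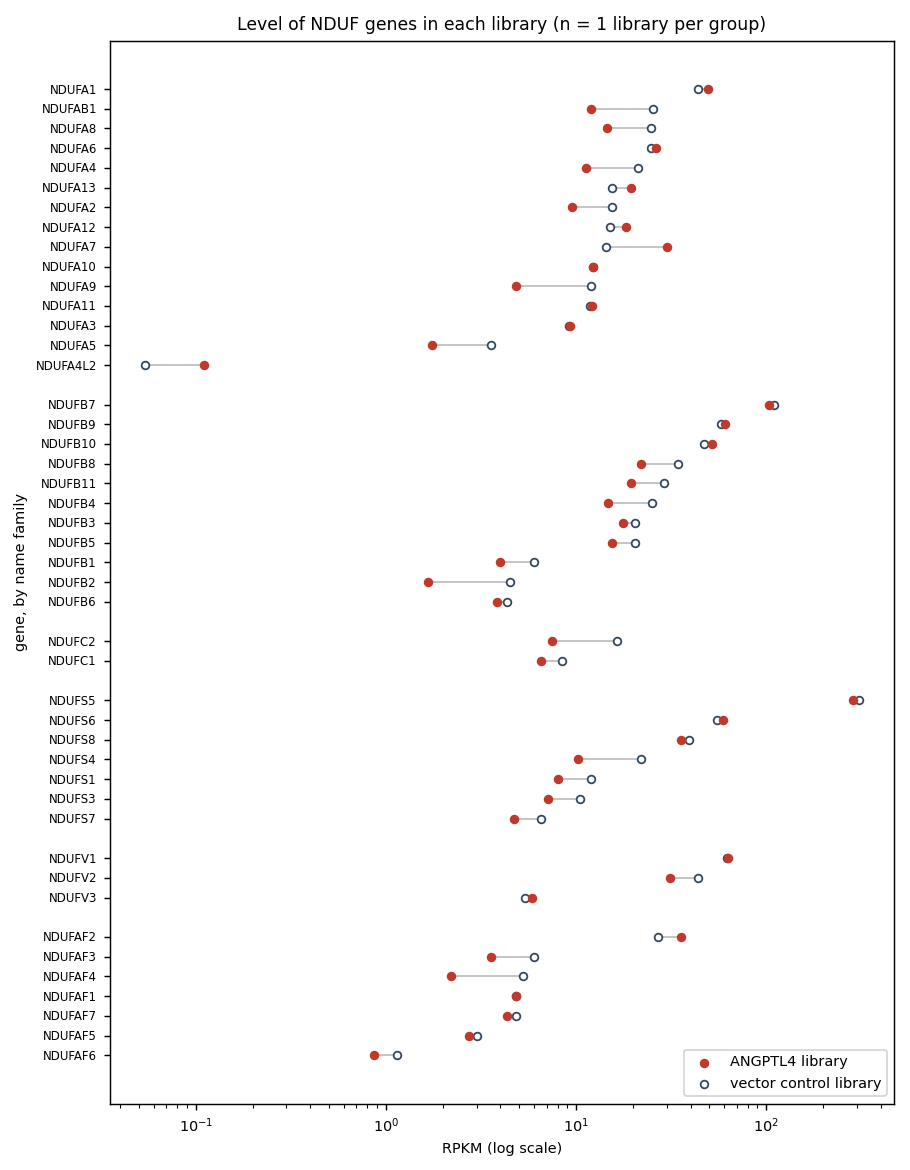
RPKM on a log axis for the genes reported one by one, grouped by name family and ordered by the control level, with filled points for the ANGPTL4 library and open points for the vector control library (1 library each). Levels run over more than 3 orders of magnitude, from NDUFA4L2 below 1 RPKM to NDUFS5 at 285.0 RPKM with ANGPTL4 and 306.8 RPKM in the control, and the order of genes is largely shared by the libraries.

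Levels differed far more between members than between libraries, although most of the proteins are present in the complex in equal numbers. The median over the 46 genes was 12.1 RPKM with ANGPTL4 and 15.5 RPKM in the control. NDUFS5, an accessory subunit of the membrane arm, was highest, at 285.0 RPKM with ANGPTL4 and 306.8 RPKM in the control. It was followed in both libraries by NDUFB7, NDUFV1, NDUFB9, NDUFS6, NDUFB10 and NDUFA1, so that the 7 highest genes kept their rank. NDUFB7 had 103.1 RPKM with ANGPTL4 and 109.5 RPKM in the control. Across the 46 genes Spearman's rho between the libraries was 0.932, a description over genes that share the same 2 libraries. At the low end NDUFA4L2, a paralogue of NDUFA4 known to be induced by hypoxia, had 0.110 RPKM with ANGPTL4 and 0.0542 RPKM in the control, from 1 read each (read ratio 2.03, 0.0259 to 159.6). A difference for it was not detectable at this depth.

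The N module was split into genes that were lower and genes that were not. NDUFV1, which carries the flavin and binds NADH, had 63.4 RPKM with ANGPTL4 and 61.9 RPKM in the control (read ratio 1.02, 0.942 to 1.11). Its partner NDUFV2, which holds an iron-sulfur cluster, had 31.3 RPKM with ANGPTL4 and 43.8 RPKM in the control (read ratio 0.714, 0.620 to 0.820). NDUFS1, the largest subunit and a carrier of further clusters, had 8.04 RPKM with ANGPTL4 and 11.9 RPKM in the control (read ratio 0.673, 0.591 to 0.765). As deposited, the core of the NADH-oxidising module was therefore uneven in these libraries, with NDUFV1 level and its electron-transfer partners lower. The interval of NDUFV1 lay wholly above the median gene at 0.911, and its exon length was not matched. Its log2 ratio was 0.17 when scaled to the median gene. With upper-quartile scaling it was 0.20, against -0.31 for NDUFV2 and -0.37 for NDUFS1. NDUFS4, an accessory subunit whose loss is a known cause of Leigh syndrome, was at least 2-fold lower, with 10.3 RPKM and 39 reads with ANGPTL4 and 21.9 RPKM and 169 reads in the control (log2 ratio -1.02; read ratio 0.469, 0.322 to 0.668). NDUFA2, which has a thioredoxin-like fold, had 9.56 RPKM with ANGPTL4 and 15.4 RPKM in the control (read ratio 0.619, 0.435 to 0.867). The other accessory genes of the module did not share this. NDUFS6, a zinc-binding subunit, had 59.5 RPKM with ANGPTL4 and 55.2 RPKM in the control, NDUFV3 had 5.85 RPKM with ANGPTL4 and 5.37 RPKM in the control and NDUFA12 had 18.4 RPKM with ANGPTL4 and 15.1 RPKM in the control, and the intervals of all 3 included 1. Over the 8 genes the median log2 ratio was -0.22, with 4 lower and 4 higher. It was -0.088 when scaled to the median gene and -0.059 with upper-quartile scaling.

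In the Q module 6 of 8 genes were lower, where 64.4% of all measured genes were, with a median log2 ratio of -0.33. The median was -0.22 when scaled to the median gene and -0.19, with 5 of 8 lower, with upper-quartile scaling. NDUFA9, an accessory subunit at the joint of the matrix and membrane arms, had the lowest log2 ratio of all members, -1.16. It had 4.84 RPKM and 168 reads with ANGPTL4, against 12.1 RPKM and 850 reads in the control (read ratio 0.402, 0.338 to 0.475). NDUFA5 had 1.76 RPKM with ANGPTL4 and 3.57 RPKM in the control (read ratio 0.493, 0.361 to 0.662), under the 2-fold limit on the log2(RPKM + 1) scale because its level is low. Among the core subunits, NDUFS3, NDUFS7 and NDUFS8 had lower values with ANGPTL4. NDUFS3, a structural core subunit, had 7.08 RPKM with ANGPTL4 and 10.5 RPKM in the control (read ratio 0.672, 0.519 to 0.864). NDUFS7, which carries the last cluster before quinone, had 4.70 RPKM with ANGPTL4 and 6.54 RPKM in the control (read ratio 0.719, 0.561 to 0.914). The intervals of NDUFS3 and NDUFS7 lay below 1. NDUFS8, another carrier of clusters, had 35.6 RPKM with ANGPTL4 and 39.4 RPKM in the control, with an interval of 0.812 to 1.001, and its sign depended on the scaling. NDUFA6, which docks an acyl carrier protein onto the module, had 26.2 RPKM with ANGPTL4 and 24.7 RPKM in the control (read ratio 1.06, 0.843 to 1.33). Of the 7 nuclear core subunits of both matrix modules, 6 were lower, against 64.4% of all measured genes, but none was 2-fold lower. Intervals lay below 1 for 5 of the 7, against 25.8% of all measured genes. Set against the median gene, 3 lay wholly below it, against 15.5%, and 1 wholly above, against 15.7%. The median log2 ratio of the 7 core subunits was -0.40, and -0.27 with upper-quartile scaling.

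**Figure D2:**
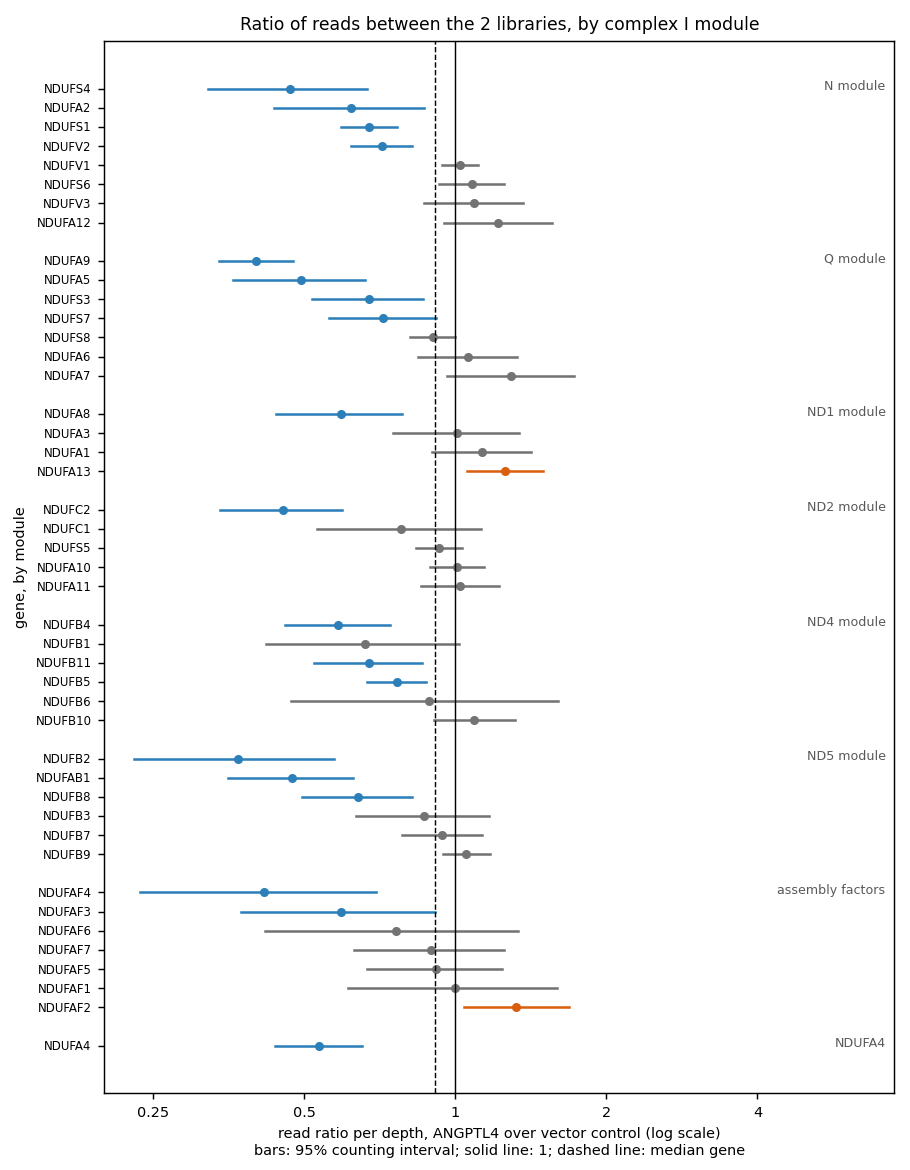
Read ratio per depth, ANGPTL4 over vector control, on a log axis with 95% counting intervals, for the genes reported one by one, grouped by module (NDUFA4L2, with 1 read per library, is left out). Blue marks intervals below 1 and orange the 2 above 1, NDUFA13 and NDUFAF2; the solid line is 1 and the dashed line the median gene at 0.911.

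The modules of the membrane arm differed in their medians. The ND4 module had 5 of 6 genes lower and a median log2 ratio of -0.43, and the ND5 module 5 of 6 and -0.41, where 64.4% of all measured genes were lower. With upper-quartile scaling the medians were -0.29 in the ND4 module and -0.25 in the ND5 module, with 5 and 4 of 6 genes lower. In the ND4 module NDUFB4 had 14.7 RPKM with ANGPTL4 and 25.2 RPKM in the control (read ratio 0.584, 0.457 to 0.741). NDUFB11, encoded on the X chromosome, had 19.4 RPKM with ANGPTL4 and 28.9 RPKM in the control (read ratio 0.673, 0.523 to 0.858). NDUFB5 had 15.5 RPKM with ANGPTL4 and 20.3 RPKM in the control (read ratio 0.765, 0.667 to 0.876). The other 3 genes of the module were less clear. NDUFB1 had 3.96 RPKM with ANGPTL4 and 5.98 RPKM in the control, NDUFB6 had 3.85 RPKM with ANGPTL4 and 4.34 RPKM in the control and NDUFB10 had 51.7 RPKM with ANGPTL4 and 47.3 RPKM in the control, each with an interval that included 1.

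The ND5 module held 2 of the 5 members that were at least 2-fold lower. NDUFB2 had 1.67 RPKM and 24 reads with ANGPTL4, against 4.52 RPKM and 132 reads in the control (log2 ratio -1.05; read ratio 0.370, 0.229 to 0.574). NDUFAB1 encodes the mitochondrial acyl carrier protein, which also serves fatty acid synthesis and iron-sulfur cluster assembly. It had 11.98 RPKM and 62 reads with ANGPTL4, against 25.3 RPKM and 266 reads in the control (log2 ratio -1.02; read ratio 0.474, 0.353 to 0.627). NDUFB8, summed over its 2 rows, had 22.1 RPKM with ANGPTL4 and 34.4 RPKM in the control (read ratio 0.639, 0.494 to 0.820). NDUFB3 had 17.7 RPKM with ANGPTL4 and 20.4 RPKM in the control, NDUFB9 had 60.6 RPKM with ANGPTL4 and 57.5 RPKM in the control, and for both, as for NDUFB7, the interval included 1. NDUFB7 and NDUFB9, the most abundant genes of this module, thus lay near equality. NDUFB8, next in level, was lower. In the control the 2-fold lower NDUFAB1 had a higher level than NDUFB3, so level did not order the differences throughout.

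The ND1 and ND2 modules had higher medians than the ND4 and ND5 modules. In the ND1 module NDUFA8 alone was lower, with 14.6 RPKM with ANGPTL4 and 24.7 RPKM in the control (read ratio 0.591, 0.440 to 0.784). NDUFA13, also known as GRIM-19, had 19.5 RPKM with ANGPTL4 and 15.5 RPKM in the control (read ratio 1.26, 1.05 to 1.498). Its row overlaps that of YJEFN3, at 4.03 RPKM with ANGPTL4 and 7.52 RPKM in the control. It also overlaps the clone-named row CTC-260F20.3, at 7.71 RPKM with ANGPTL4 and 5.11 RPKM in the control, so some of its reads are uncertain. NDUFA1, the other X-linked member, had 49.7 RPKM with ANGPTL4 and 43.9 RPKM in the control, and NDUFA3 had 9.25 RPKM with ANGPTL4 and 9.16 RPKM in the control, with intervals that included 1. In the ND2 module NDUFA10 (12.3 RPKM with ANGPTL4, 12.2 RPKM in the control) and NDUFA11 (12.1 RPKM with ANGPTL4 and 11.9 RPKM in the control) were nearly level. NDUFC1 had 6.53 RPKM with ANGPTL4 and 8.39 RPKM in the control (read ratio 0.779, 0.530 to 1.13), and the interval of NDUFS5 also included 1 (0.834 to 1.033). The median log2 ratio was 0.09 in the ND1 module, above the -0.11 of all measured genes. It was 0.22 when scaled to the median gene and 0.25 with upper-quartile scaling, against 0.0015 and 0.026 over all measured genes. In the ND2 module it was -0.11, and it turned to 0.028 when scaled to the median gene and to 0.058 with upper-quartile scaling.

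NDUFC2, the remaining gene of the ND2 module, could not be read apart from an overlapping row. Its own row (chromosome 11, 77779350 to 77791265, hg19) had 7.46 RPKM and 64 reads with ANGPTL4, against 16.5 RPKM and 287 reads in the control (log2 ratio -1.05; read ratio 0.453, 0.340 to 0.596). The read-through row NDUFC2-KCTD14, in which the first exons of NDUFC2 are joined to an exon of the neighbouring KCTD14, went the other way, with 33.0 RPKM and 78 reads with ANGPTL4 and 5.20 RPKM and 25 reads in the control. The read-through row held 54.9% of the reads of both rows with ANGPTL4 (Wilson interval 46.7 to 62.9) and 8.01% in the control (5.49 to 11.6). Both rows combined had 142 reads with ANGPTL4 and 312 reads in the control, a read ratio of 0.925 (0.753 to 1.13), an interval that included 1. In summed RPKM, which weights the short read-through row more, the locus had 40.5 RPKM with ANGPTL4 and 21.7 RPKM in the control. The exon length of the read-through row could not be matched to the annotation, so its reads are minimum numbers, and the shares and the combined ratio hold only for the smallest length that gives whole reads. In GENCODE release 29 (GRCh38, minus strand of chromosome 11) the read-through transcripts share 42.4% to 63.3% of their 50-base words with NDUFC2 transcripts. The coding sequence around the point of divergence is given here. Each line gives the last 30 bases of the shared exon in lower case and the first 30 bases of the following exon in capitals, from the GENCODE 29 transcripts.
NDUFC2: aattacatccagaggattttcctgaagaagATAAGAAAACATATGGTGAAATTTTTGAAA
NDUFC2-KCTD14: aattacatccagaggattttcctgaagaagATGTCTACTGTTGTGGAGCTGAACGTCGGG
Bases up to the join are identical, and only reads that reach the capitals, or other exons of one transcript alone, can tell the transcripts apart. How the authors divided the shared reads is not given in the sources used here.

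NDUFA7, the only member at least 2-fold higher, also had 2 rows that went in opposite directions. In the sum of rows it had 30.2 RPKM with ANGPTL4 and 14.4 RPKM in the control, a log2 ratio of 1.025. The first row (chromosome 19, 8373167 to 8386263) had 6.57 RPKM and 34 reads with ANGPTL4, against 10.6 RPKM and 111 reads in the control (read ratio 0.623, 0.411 to 0.922). The second row (chromosome 19, 8373490 to 8386280) had 23.7 RPKM and 46 reads with ANGPTL4, against 3.797 RPKM and 15 reads in the control (read ratio 6.23, 3.42 to 12.02). The rows cover nearly the same region, and the second is short: the exon length behind its RPKM was 601 bases, against 1600 bases for the first. The same read counts for more RPKM in the second row. Both rows also overlap that of RPS28, at 13.3 RPKM with ANGPTL4 and 28.0 RPKM in the control. The first also overlaps that of CD320, at 11.3 RPKM with ANGPTL4 and 9.29 RPKM in the control. The length of 601 bases is that of a GENCODE 29 transcript of NDUFA7, while neither length matches the full gene, so the reads of both rows are minimum numbers. Counted in reads, NDUFA7 had 80 with ANGPTL4 and 126 in the control, a read ratio of 1.29 (0.963 to 1.72), so at these lengths the 2-fold difference stood in the RPKM sum and not in the reads.

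Other members share positions with further rows as well. Of the 48 member rows, 27 overlap at least 1 other row with a value above 0. At NDUFA9 the overlapping clone-named row RP11-500M8.7 had 15.1 RPKM and 20 reads with ANGPTL4, against 4.46 RPKM and 12 reads in the control, and both rows combined had a read ratio of 0.443 (0.377 to 0.520). In summed RPKM the direction turned, with 19.97 RPKM with ANGPTL4 and 16.5 RPKM in the control. The length of that row was not matched either, so its reads are minimum numbers. At NDUFB8 the first of its rows held 14.3% of the reads with ANGPTL4 (8.37 to 23.3) and 14.98% in the control (11.2 to 19.8), again at unmatched lengths. This clone-named row and the comparison of row shares were chosen after the values were seen. NDUFS4 and NDUFAB1 overlap no other row above 0. NDUFB2 overlaps the ends of ADCK2 and BRAF, where ADCK2 had 3.82 RPKM with ANGPTL4 and 4.54 RPKM in the control and BRAF had 4.02 RPKM with ANGPTL4 and 3.47 RPKM in the control.

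**Figure D3:**
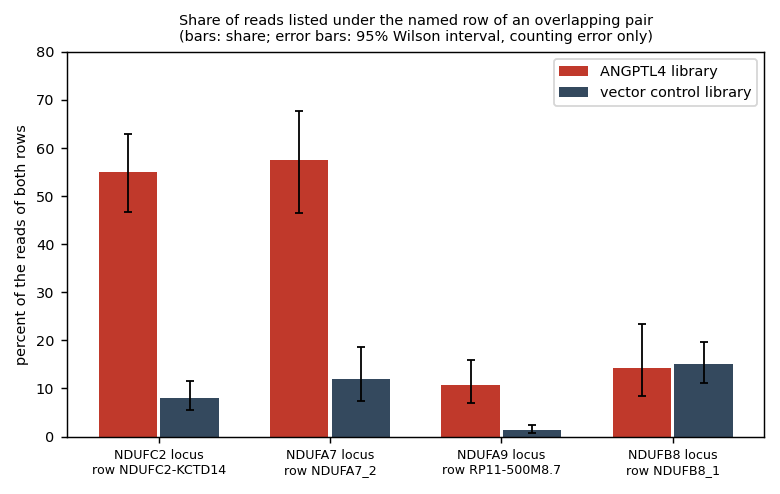
Percent of the reads of a pair of overlapping rows that are listed under the row named below each pair of bars, at 4 loci, with 95% Wilson intervals for counting error, ANGPTL4 library left of vector control library. The named row takes 54.9% against 8.01% at NDUFC2, 57.5% against 11.9% at NDUFA7 and 10.6% against 1.39% at NDUFA9, while the shares at NDUFB8 are 14.3% against 14.98%.

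Of the 7 assembly factors named NDUFAF 6 were lower, against 64.4% of all measured genes, with a median log2 ratio of -0.13 and several values close to 0. With upper-quartile scaling the median was 0.0016 and 3 of 7 were lower. NDUFAF3 and NDUFAF4 act together on the early Q module, and both were lower. NDUFAF4 had 2.19 RPKM and 18 reads with ANGPTL4, against 5.27 RPKM and 88 reads in the control (log2 ratio -0.97; read ratio 0.416, 0.236 to 0.696), which put it just inside the 2-fold limit. NDUFAF3 had 3.56 RPKM with ANGPTL4 and 6.001 RPKM in the control (read ratio 0.593, 0.375 to 0.911). NDUFAF2, a paralogue of NDUFA12 that holds its place during assembly, was the highest of the factors, with 35.7 RPKM with ANGPTL4 and 26.9 RPKM in the control (read ratio 1.32, 1.04 to 1.68). It was thus higher while NDUFAF3 and NDUFAF4 were lower. NDUFAF1, a chaperone of the membrane arm, had 4.85 RPKM with ANGPTL4 and 4.86 RPKM in the control. NDUFAF5, which hydroxylates NDUFS7, had 2.74 RPKM with ANGPTL4 and 3.001 RPKM in the control. NDUFAF7, a methyltransferase, had 4.32 RPKM with ANGPTL4 and 4.83 RPKM in the control. NDUFAF6 had 0.869 RPKM with ANGPTL4 and 1.14 RPKM in the control. The intervals of these 4 factors included 1.

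Complex I assembly factors with other names lay close to the median gene. Of 11, 10 were measured, 7 of them lower and 3 higher, none by 2-fold. Of all measured genes 64.4% were lower, 1.92% at least 2-fold lower and 1.19% at least 2-fold higher. The median log2 ratio of the 10 was -0.09. It turned to 0.010 when scaled to the median gene and to 0.032 with upper-quartile scaling. Under each of these scalings 4 of 10 were lower. ECSIT, which works with NDUFAF1, had 25.1 RPKM with ANGPTL4 and 33.6 RPKM in the control (read ratio 0.745, 0.628 to 0.880). TMEM70 had 1.97 RPKM with ANGPTL4 and 3.11 RPKM in the control (read ratio 0.633, 0.357 to 1.07). At the other end TMEM261 had 7.22 RPKM with ANGPTL4 and 4.31 RPKM in the control, and ATP5SL had 18.8 RPKM with ANGPTL4 and 15.7 RPKM in the control, both from few reads and with intervals that included 1. TMEM186 was listed at 0 with ANGPTL4, had 2 reads in the control, and was not measured.

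NDUFA4 carries a complex I name but is known as a subunit of cytochrome c oxidase, complex IV. It had 11.3 RPKM with ANGPTL4 and 21.1 RPKM in the control (log2 ratio -0.84; read ratio 0.536, 0.438 to 0.652). This is further from equality than the median nuclear subunit of complexes II to V. Of those 39 subunits 31 were lower and 4 at least 2-fold lower, with a median log2 ratio of -0.50, against -0.20 for the complex I members. Of all measured genes 64.4% were lower and 1.92% at least 2-fold lower. With upper-quartile scaling 29 of the 39 were lower, 2 at least 2-fold lower and 1 at least 2-fold higher, as 2 and 1 also were when scaled to the median gene. The lowest were the complex II membrane anchors, SDHC with 8.75 RPKM with ANGPTL4 and 23.1 RPKM in the control and SDHD with 8.15 RPKM with ANGPTL4 and 20.96 RPKM in the control. The highest were ATP synthase genes, ATP5J2 with 71.2 RPKM with ANGPTL4 and 37.7 RPKM in the control and ATP5J with 41.3 RPKM with ANGPTL4 and 28.2 RPKM in the control. With 1 library per group the difference between the lists was not tested.

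The 7 complex I subunits encoded by mitochondrial DNA all lay on the other side. Summed over these genes the level was 42600 RPKM with ANGPTL4 and 23760 RPKM in the control, while the 46 nuclear genes together had 1139 RPKM with ANGPTL4 and 1264 RPKM in the control. MT-ND4, the most abundant, had 16709 RPKM with ANGPTL4 and 9103 RPKM in the control (read ratio 1.84, 1.82 to 1.85). MT-ND3 differed least, with 1879 RPKM with ANGPTL4 and 1512 RPKM in the control (read ratio 1.24, 1.18 to 1.31). MT-ND6, the only one of the 7 on the other strand of the mitochondrial genome, differed most (read ratio 2.32, 2.24 to 2.41), followed by MT-ND2 (2.01, 1.97 to 2.05). MT-ND1, MT-ND4L and MT-ND5 lay between, at read ratios of 1.66, 1.67 and 1.73. The 13 mitochondrial protein genes took 8.71% of all reads with ANGPTL4 and 5.11% in the control, and rescaling without them moved the median of the nuclear members to -0.17. All 3 other scalings multiplied the ANGPTL4 values up, by factors between 1.04 and 1.12. The positive ratios of the mitochondrially encoded subunits could therefore only rise under them, and their sign was not checked by these scalings.

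**Figure D4:**
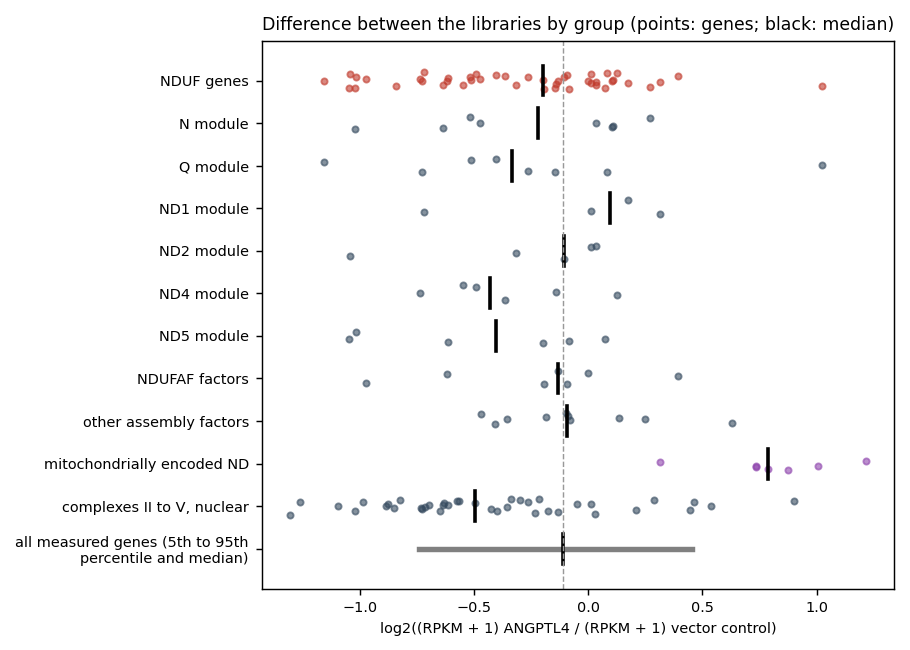
log2((RPKM + 1) with ANGPTL4 / (RPKM + 1) in the control) for each measured gene of each list, with black bars for medians; the grey bar spans the 5th to 95th percentile of all measured genes and the dashed line is their median. The NDUF genes have a median of -0.20, nuclear subunits of complexes II to V -0.50 and mitochondrially encoded complex I subunits 0.79.

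Members for which a row named as a pseudogene exists had a lower median log2 ratio than those without such a row. Such rows were found by name only, so the other members may have pseudogenes under other names. A row named as a pseudogene exists for 12 members, and 10 of these were lower, with a median log2 ratio of -0.58. Of the 33 measured members without one, 21 were lower, with a median of -0.14, close to the -0.11 of all genes. Of all measured genes 64.4% were lower. This split was not repeated under the scalings. All 38 rows of NDUF pseudogenes were listed at 0 in both libraries. How reads that match a gene and its pseudogenes were treated is not given in the sources used here, and the part of this in the difference was not tested. Of the 5 members at least 2-fold lower, NDUFA9 alone has such a row.

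The promoters of the members at least 2-fold apart were examined because nuclear respiratory genes are known to share binding sites for the factors NRF1, YY1 and the ETS protein GABP. RefSeq promoter windows (GRCh38.p14, 250 bases before and 50 after the start) were found for 38 of the 46 members. The letters searched on both strands were the 10-letter palindromic core of the NRF1 site, AAGATGGC for YY1 and CCGGAAG for ETS, of which the ETS and YY1 letters can overlap by AAG. The YY1 letters were in 7 of 38 members (18.4%), against 3.52% of all 27305 genes with a window. The NRF1 letters were in 3 (7.89%), against 1.52%, and the ETS letters in 6 (15.8%), against 12.2%. The windows of 5 of the 6 genes at least 2-fold apart are shown, NDUFC2 having no entry, with matches in capitals, 5′ to 3′ on the strand of the gene.
NDUFA9 (chr12:4648864-4649163, plus strand): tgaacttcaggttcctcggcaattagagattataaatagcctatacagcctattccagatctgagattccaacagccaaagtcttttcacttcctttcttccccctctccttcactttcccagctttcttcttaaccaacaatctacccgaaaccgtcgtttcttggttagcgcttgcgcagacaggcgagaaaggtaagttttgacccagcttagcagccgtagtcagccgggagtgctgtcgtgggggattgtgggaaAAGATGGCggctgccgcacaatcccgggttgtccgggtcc
NDUFB2 (chr7:140696458-140696757, plus strand): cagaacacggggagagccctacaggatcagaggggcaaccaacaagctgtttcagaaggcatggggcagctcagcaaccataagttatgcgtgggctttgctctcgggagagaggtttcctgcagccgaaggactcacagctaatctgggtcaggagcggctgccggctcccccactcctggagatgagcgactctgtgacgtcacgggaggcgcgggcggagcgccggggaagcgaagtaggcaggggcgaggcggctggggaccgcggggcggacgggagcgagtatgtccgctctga
NDUFS4 (chr5:53560389-53560688, plus strand): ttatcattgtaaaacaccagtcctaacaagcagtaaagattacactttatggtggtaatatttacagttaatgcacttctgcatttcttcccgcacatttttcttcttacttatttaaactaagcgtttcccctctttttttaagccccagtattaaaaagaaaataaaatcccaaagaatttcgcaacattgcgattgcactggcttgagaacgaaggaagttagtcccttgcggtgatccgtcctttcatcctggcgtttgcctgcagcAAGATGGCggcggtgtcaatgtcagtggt
NDUFAB1 (chr16:23596267-23596566, minus strand): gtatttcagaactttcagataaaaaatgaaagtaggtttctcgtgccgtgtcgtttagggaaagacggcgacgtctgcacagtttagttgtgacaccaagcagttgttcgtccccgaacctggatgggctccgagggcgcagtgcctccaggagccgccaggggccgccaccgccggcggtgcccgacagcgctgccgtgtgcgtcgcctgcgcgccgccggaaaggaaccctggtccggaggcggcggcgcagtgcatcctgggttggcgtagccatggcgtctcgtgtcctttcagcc
NDUFA7 (chr19:8321326-8321625, minus strand): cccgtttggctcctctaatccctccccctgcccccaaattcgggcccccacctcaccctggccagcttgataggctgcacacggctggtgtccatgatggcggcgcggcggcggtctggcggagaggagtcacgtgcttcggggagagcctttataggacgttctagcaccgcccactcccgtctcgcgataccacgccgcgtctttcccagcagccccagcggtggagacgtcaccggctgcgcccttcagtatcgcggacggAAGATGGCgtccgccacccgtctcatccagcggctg
The YY1 letters began at base 261 of the window in NDUFA9, 272 in NDUFS4 and 265 in NDUFA7, all past the start, and NDUFB2 and NDUFAB1 held none of the 3 motifs. Members with the YY1 letters thus included genes lower and, in the RPKM sum, higher with ANGPTL4. Of the 7 members with them 4 were lower, with a median log2 ratio of -0.40 and 2 at least 2-fold lower. Of the 31 without them 21 were lower, with a median of -0.15 and 2 at least 2-fold lower. All 3 members with the NRF1 letters, NDUFA8, NDUFB4 and NDUFAF5, were lower, with a median of -0.72, against 22 of 35 and -0.15 without. The interval of NDUFAF5 included 1 (0.668 to 1.24), and its sign changed under scaling. Of all measured genes 64.4% were lower. Of the 6 with the ETS letters 4 were lower, with a median of -0.30, against 21 of 32 and -0.17 without. These groups are small and the differences between them were not tested. A match is a run of letters and not evidence of binding.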

How the data were processed

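RNA of BFTC 905 cells was sequenced in 1 library with the ANGPTL4 plasmid and 1 with the vector, grouped by the transfection in the labels. The authors deposited RPKM, and the file headers give 1 value for each gene row. Coordinates follow hg19, according to the submitters' processing notes. Aligner, counting program, annotation, strand and the treatment of shared reads are not given in the sources used here.

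Both tables held 57773 rows. Rows differing only by a numeric suffix were summed by symbol. Region starts were turned to count from 1. The library totals are the smallest at which all 13 mitochondrial protein genes gave whole reads (tolerance 0.001). Exon length was the value giving whole reads in both libraries, taking one within 5% of the GENCODE 29 length where it existed and otherwise the smallest, which gives minimum reads. Of 48 member rows, 38 matched within 5%; the other 10, among them those of NDUFA13, NDUFA7, NDUFA8, NDUFB8, NDUFB9, NDUFS7 and NDUFV1, have minimum reads. Ratio intervals are exact conditional binomial intervals (95%), shares have Wilson intervals, and both cover counting error only. The log2 ratio used a pseudocount of 1, which understates differences of low genes, and a minimum of 1 RPKM in at least 1 library.

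Genes named by rule were members at least 2-fold apart, the 2 at either end of each name family and of each other list, members under 1 RPKM in both libraries, the 7 mitochondrially encoded genes, NDUFC2-KCTD14 and ANGPTL4; all other members were given by their values within their module. The values of 1 member are not reported here, while counts, medians and sums include it. Members, lists and rules were chosen with earlier results of these data known. The recovery of reads was tested on simulated data, and the outcome is not given here. That test is not taken as a check of rows whose exon length was not matched, where reads are minimum numbers. The row shares and combined ratios of such rows therefore rest on the smallest length. Alternatives were other pseudocounts, minimums, scalings, row choices and member sets. Python 3.11.15, numpy 2.4.6, pandas 2.3.3, scipy 1.17.1 and matplotlib 3.10.9 were used.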

Additional observations from a re-analysis of the deposited data

How the results depend on the processing

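The median log2 ratio of the complex I members, -0.20, kept its sign under every alternative run. It was -0.28 with a pseudocount of 0.1, -0.29 with a minimum of 5 RPKM, -0.13 scaled to the median gene, -0.11 with upper-quartile scaling and -0.14 over members without a pseudogene row, and moved less under the others. The 6 members at least 2-fold apart became 0 with a pseudocount of 5, 2 when scaled to the median gene, 2 with upper-quartile scaling and 3 when rescaled without the 13 mitochondrial protein genes. Of all measured genes 1.92% were 2-fold lower and 1.19% higher as deposited. These shares were 0.22% and 0.127% with a pseudocount of 5, and 1.30% and 1.53% when scaled to the median gene. They were 1.22% and 1.57% with upper-quartile scaling, and 1.60% and 1.31% when rescaled without the mitochondrial genes. Upper-quartile scaling gave 1 lower and 1 higher member, against 5 and 1 as deposited. The number of lower members was 31 of 45, 24 of 38 with a minimum of 5 RPKM, 25 of 45 with upper-quartile scaling and 21 of 33 without members that have a pseudogene row. In all, 6 members changed sign under at least 1 scaling: NDUFAF1, NDUFAF5, NDUFAF7, NDUFB7, NDUFS5 and NDUFS8. With reads pooled over overlapping rows, an alternative chosen after seeing the data, the count was 4, all lower. No paired analysis was possible because each group has 1 library. Depth limits the low members: at 41 or fewer reads with ANGPTL4, as for NDUFAF4, NDUFAF3, NDUFB6 and the 2-fold lower NDUFB2 and NDUFS4, intervals spanned more than 2-fold.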

Other observations

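Genes known to regulate nuclear respiratory genes lay on both sides. Of 11 looked at, 10 were measured, 7 lower and 3 higher with ANGPTL4, none by 2-fold. Of all measured genes 64.4% were lower, 1.92% at least 2-fold lower and 1.19% at least 2-fold higher. The median log2 ratio of the 10 was -0.23. With upper-quartile scaling it was -0.082, with 6 of 10 lower. The coactivator PPARGC1A was listed at 0 in both libraries. TFB1M, a mitochondrial rRNA methyltransferase, had 3.28 RPKM with ANGPTL4 and 5.62 RPKM in the control (read ratio 0.584, 0.372 to 0.890). YY1 had 16.4 RPKM with ANGPTL4 and 22.5 RPKM in the control (read ratio 0.728, 0.648 to 0.818). The coactivator PPRC1 had 26.1 RPKM with ANGPTL4 and 19.1 RPKM in the control (read ratio 1.36, 1.22 to 1.53), and its relative PPARGC1B 3.36 RPKM with ANGPTL4 and 2.86 RPKM in the control. NRF1 had 3.60 RPKM with ANGPTL4 and 3.17 RPKM in the control (read ratio 1.14, 0.780 to 1.63).

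Complex I members had shorter exon sequence than nuclear protein-coding genes in general, with a median of 2540 bases over 45 measured members, against 4794 bases over 10366 genes. Across the 45 members Spearman's rho with the log2 ratio was -0.21 for exon length, 0.38 for GC content of the longest coding transcript and 0.37 for level. Across the 10366 genes it was 0.11, 0.13 and -0.0057 in the same order. These are descriptions over genes that share the same 2 libraries.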
